A study of Mus musculus with 18 samples.

Results

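The 10 genes described here mark or drive the transition between epithelial and mesenchymal cells, and were chosen by Ensembl ID: Cdh1, Epcam and Esrp1 on the epithelial side, Cdh2 and Vim on the mesenchymal side, and the transcription factors Snai1, Snai2, Zeb1, Zeb2 and Twist1. They are 10 of the 51826 features counted. All 10 were found in each of the 18 libraries' tables and passed the filter on low counts, which left 13701 features for testing. The libraries are ribosome profiling of E14, an established line of mouse embryonic stem cells. Fragments of mRNA shielded by ribosomes, called footprints, were sequenced and counted per gene after cycloheximide had stalled the ribosomes. Unedited cells (WT) were compared with a Quaking knockout (KO) line and a Sam68 KO line made in the same background, each as stem cells (day 0) and after 10 days of differentiation as embryoid bodies (day 10), which are floating aggregates. Each of the 6 groups held 3 libraries, given by the series as biological triplicates, so p-values measure the spread between these libraries. The sources used here do not say how the genes were disrupted or how many clones a knockout line holds. A footprint count depends on how much mRNA there is and how often it is translated, and in a mixed aggregate fewer cells of a type and less RNA per cell cannot be told apart.

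In an epithelium, neighbouring cells are held together by E-cadherin, the product of Cdh1. During gastrulation and at many later steps of development, cells leave epithelia by repressing Cdh1 and taking up a mobile, mesenchymal form with N-cadherin and vimentin. Snail, Slug, Zeb and Twist proteins drive that change, and the Snail and Zeb families repress epithelial genes by binding E-box sequences near their starts. Esrp1 directs epithelial patterns of alternative splicing. Quaking and Sam68, both STAR proteins that bind RNA, act on splicing too, and Quaking is known as a splicing factor of mesenchymal cells. Mouse embryonic stem cells themselves have E-cadherin and EpCAM at their surface.

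Total counts ranged from 5413775 to 10646768 in WT, 1373377 to 3019843 in Quaking KO and 4629369 to 8062158 in Sam68 KO at day 0. At day 10 the ranges were 1175919 to 6513343, 988210 to 3281358 and 2196924 to 7885195. Levels are given as CPM, which are counts relative to the scaled size of the library. In 3 day 10 libraries (WT replicate 3 and Sam68 KO replicates 2 and 3) the 10 largest features held 60.2% to 70.4% of all counts, against at most 30.2% in any other library. Counts of 3 came to 7.05 CPM in WT day 10 replicate 3 and to at most 2.78 CPM elsewhere. The differences between lines at day 10 that passed the test are also given without those 3 libraries, as are the calls over time that were lost without them. Quaking, Sam68 and markers of stem cells or of other cell types were not looked up. The reference table used here holds no Ensembl ID to name them by. The labels were therefore not checked against them, and the part of cell makeup in the results was not tested. The sequencing pools named in the labels held WT and Quaking KO stem cells (pool 1), Sam68 KO stem cells with WT embryoid bodies (pool 2), and embryoid bodies of both knockouts (pool 3). A comparison within a pool was therefore possible between WT and Quaking KO stem cells and between the embryoid bodies of both knockouts. In the other comparisons made here, pool and group cannot be told apart.

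**Figure D1:**
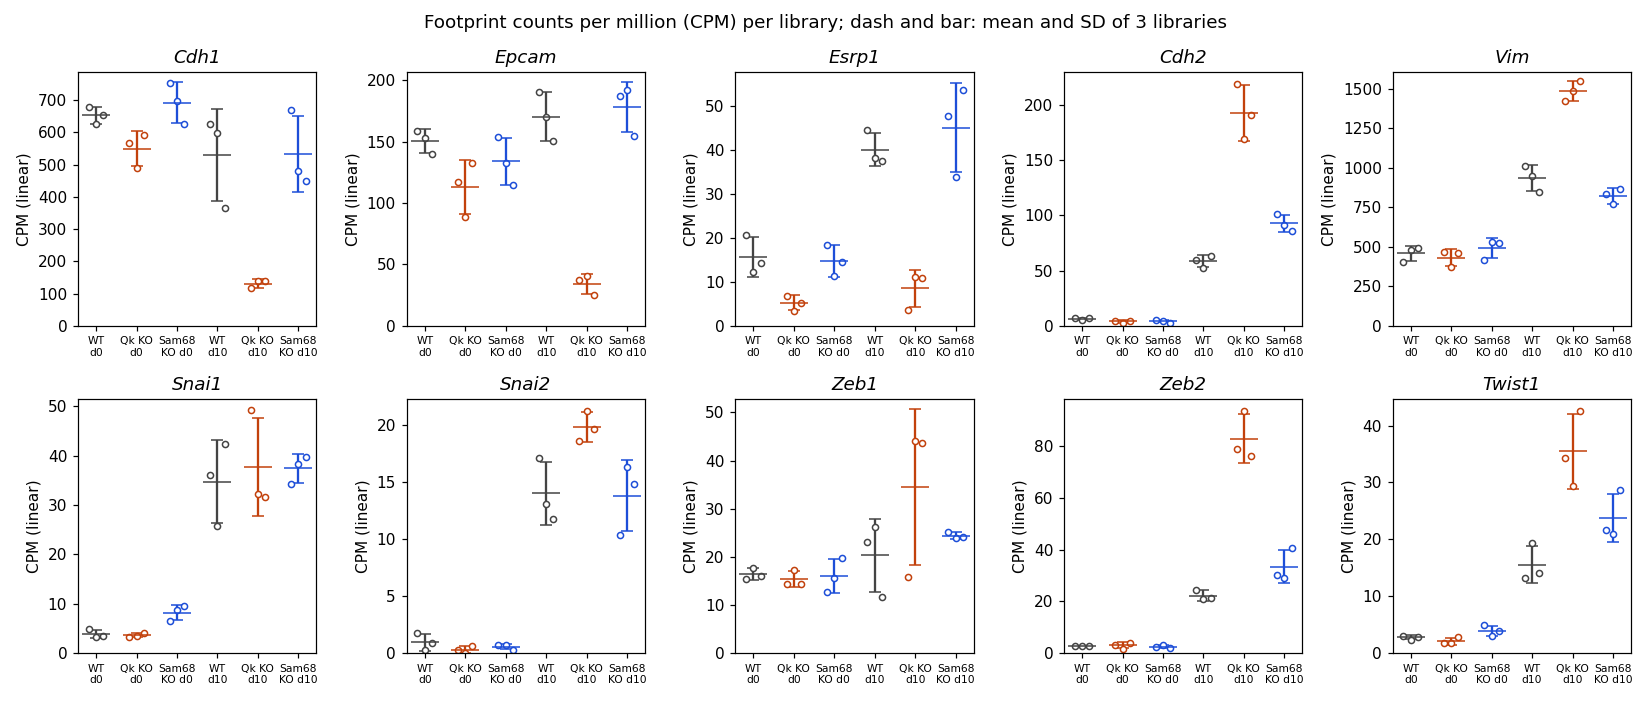
Footprint level of each of the 10 genes in every library, in CPM on a linear axis from 0, by line (WT grey, Quaking KO orange, Sam68 KO blue) and day (d0, d10). Points are libraries, dashes and bars the mean and SD of 3. At day 10 the Quaking KO libraries lie below both other lines for Cdh1 (116 to 139 CPM), Epcam and Esrp1 and above them for Cdh2 (169 to 219 CPM), Vim and Zeb2.

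The Quaking KO embryoid bodies differed most from the other groups. At day 10 the 3 epithelial genes were 4.06-fold to 5.06-fold lower in Quaking KO than in WT, while Cdh2, Vim, Zeb2 and Twist1 were 1.59-fold to 3.67-fold higher. These 7 genes passed edgeR's quasi-likelihood test at a Benjamini-Hochberg adjusted p below 0.05, 3 of them lower and 4 higher. Over all features 23.9% passed, 12.8% lower and 11.1% higher. The balance over all features turned with the scaling, from 1756 lower and 1523 higher to 1513 and 1820 with RLE scaling and 1604 and 1804 with DESeq2. The median log2 fold change was 0.56 over the 10 genes and -0.03 over all features. Snai1, Snai2 and Zeb1 did not pass. In Sam68 KO embryoid bodies the epithelial genes overlapped WT, and none of the 10 genes passed the edgeR threshold, against 0.175% of all features. At an unadjusted p below 0.05 there were 3 of the 10, against 6.75% of all features. DESeq2 called 1 of the 10, and over all 13701 features it called 40 higher and 34 lower. The values of both knockouts were set against the same 3 WT libraries.

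**Figure D2:**
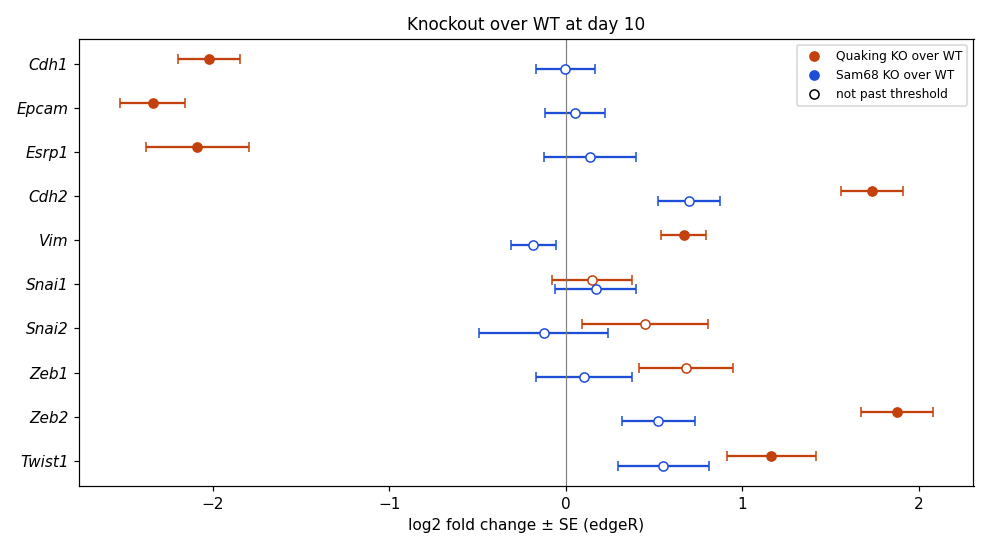
Log2 fold change (x axis, ± SE from edgeR) of each gene (y axis) at day 10, Quaking KO over WT in orange and Sam68 KO over WT in blue; filled points passed an adjusted p of 0.05. The 3 epithelial genes lie at -2.02 to -2.34 for Quaking KO and within 0.13 of 0 for Sam68 KO.

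Between the knockouts at day 10, a comparison within pool 3, 6 genes passed: Cdh1, Epcam and Esrp1 were higher and Cdh2, Vim and Zeb2 lower in Sam68 KO than in Quaking KO. Over all features 23.7% passed, 13% higher and 10.6% lower (1787 and 1455 features, or 1505 and 1875 with RLE scaling). This comparison uses the same 3 Quaking KO libraries as that with WT. With the 3 dominated libraries left out, 2 WT libraries and 1 Sam68 KO library remained at day 10. The filter on low counts then kept 15823 features rather than 13701. The lone Sam68 KO library is then assumed to vary like the other groups. Against WT the log2 fold changes of Quaking KO were then -2.42 for Epcam, -2.11 for Esrp1, 1.76 for Cdh2, 0.59 for Vim, 1.85 for Zeb2 and 1.13 for Twist1. Sam68 KO over Quaking KO then stood at 2.47 for Epcam, 2.31 for Esrp1, -0.91 for Cdh2, -0.82 for Vim and -1.45 for Zeb2. Between Sam68 KO and WT, Cdh2 then stood at 0.85, a difference that rests on the 1 Sam68 KO library.

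Cdh1, the E-cadherin gene (ENSMUSG00000000303.12, chr8:106603350-106670247, mouse build GRCm38.p6), was high in all stem cell groups. Its level was 678, 626 and 653 CPM in the 3 WT day 0 libraries, 566, 489 and 592 CPM in Quaking KO and 753, 696 and 627 CPM in Sam68 KO. The ranges of WT and Sam68 KO overlapped, and the Quaking KO libraries were all slightly below both, without passing the test against WT (-0.25 on the log2 scale, SE 0.17, edgeR adjusted p = 0.916). At day 10 Cdh1 stood at 626, 599 and 367 CPM in WT and at 668, 481 and 448 CPM in Sam68 KO. In Quaking KO it was 116, 139 and 139 CPM. No Quaking KO library came near the lowest of the other lines. The difference from WT was -2.02 on the log2 scale (SE 0.17, edgeR adjusted p = 6.81e-09) and -2.23 without the dominated library. Sam68 KO exceeded Quaking KO by 2.02 (SE 0.17, edgeR adjusted p = 5.37e-09), and by 2.35 without the dominated libraries.

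Over the 10 days Cdh1 fell 4.17-fold in Quaking KO, and the difference of this change from that in WT was itself tested. From day 0 to day 10 Cdh1 changed by -2.06 on the log2 scale in Quaking KO (SE 0.17, edgeR adjusted p = 2.30e-10) and by -0.29 in WT (SE 0.17, adjusted p = 0.130). The interaction, the Quaking KO change minus the WT change, was -1.77 (SE 0.24, edgeR adjusted p = 2.24e-05). In WT the call appeared when WT day 10 replicate 1 was left out (-0.54, edgeR adjusted p = 0.0187). In Sam68 KO the change was -0.38 (SE 0.17, edgeR adjusted p = 0.0493). That call was lost without Sam68 KO day 0 replicate 1 or 2 or day 10 replicate 2 or 3 (edgeR adjusted p = 0.0787 to 0.144), and without the dominated libraries the change was -0.03 (edgeR adjusted p = 0.874). The dominated libraries had the lowest Cdh1 levels of their groups, and the part of their composition in that was not tested.

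Epcam (ENSMUSG00000045394.8, chr17:87635979-87651127) encodes EpCAM, an adhesion molecule of epithelia and stem cells. Like Cdh1 it was lower in Quaking KO embryoid bodies than in the other lines. Over time it rose in Sam68 KO, where Cdh1 fell, but neither call was stable. The Epcam call was lost in 6 and the Cdh1 call in 8 of 14 alternative settings. The RefSeq sequence of the 250 bases before its start (GRCm38.p6, chr17:87635729-87635978, plus strand) is shown because E-boxes are bound by the Snail and Zeb repressors and Epcam is among the genes lowest in Quaking KO embryoid bodies relative to WT. The capitals mark the letters CACCTG, or CAGGTG, which is the same site read on the other strand.
Epcam upstream: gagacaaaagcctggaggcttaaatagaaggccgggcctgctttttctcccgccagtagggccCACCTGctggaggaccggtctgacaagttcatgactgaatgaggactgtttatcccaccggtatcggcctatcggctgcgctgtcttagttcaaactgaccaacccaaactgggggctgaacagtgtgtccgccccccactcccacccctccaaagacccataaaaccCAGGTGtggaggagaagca
The window held CACCTG with its first base at -187 and CAGGTG at -19, counted from the start. Of 32851 such windows in the RefSeq table, 17.2% held at least 1 match and 2.06% at least 2. Such windows were read for 5 of the genes (Epcam, Vim, Snai1, Twist1 and 4 starts of Zeb2), and 2 of these 8 windows had a match. A match is only a run of letters, and no binding was measured.

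Epcam footprints were 159, 153 and 140 CPM in WT stem cells, 118, 89.0 and 132 CPM in Quaking KO and 154, 133 and 115 CPM in Sam68 KO. At day 10 they reached 191, 170.4 and 150.4 CPM in WT and 187, 192 and 155 CPM in Sam68 KO, against 37.1, 40.8 and 24.9 CPM in Quaking KO. The WT and Sam68 KO ranges overlapped at both days. On the log2 scale Quaking KO lay below WT at both days, slightly at day 0, which did not pass (-0.41, SE 0.17, edgeR adjusted p = 0.569), and by far more at day 10 (-2.34, SE 0.19, edgeR adjusted p = 1.87e-09). Against Sam68 KO at day 10 the gap was 2.39 (SE 0.18, edgeR adjusted p = 8.68e-10). Over time Epcam fell in Quaking KO (-1.74, SE 0.18, edgeR adjusted p = 1.05e-08) and did not pass in WT (0.20, SE 0.17, adjusted p = 0.310). The interaction was -1.93 (SE 0.25, edgeR adjusted p = 1.17e-05). In Sam68 KO it rose slightly (0.42, SE 0.17, edgeR adjusted p = 0.0320). That call was lost without day 0 replicate 2 (0.0762) or 3 (0.155) or without day 10 replicate 1 (0.260), 2 (0.277) or 3 (0.0724). With no filter on low counts it was lost too (0.17, edgeR adjusted p = 0.604).

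Esrp1 (ENSMUSG00000040728.15, chr4:11331933-11386783), the epithelial splicing regulator, was higher in embryoid bodies than in stem cells in each line. In WT it went from 20.8, 12.2 and 14.2 CPM to 44.5, 38.3 and 37.6 CPM, with no overlap (2.60-fold, edgeR adjusted p = 5.34e-05). In Sam68 KO it went from 18.4, 11.2 and 14.6 CPM to 47.7, 33.9 and 53.7 CPM (3.06-fold, edgeR adjusted p = 6.95e-06). Quaking KO libraries were low at both days, at 6.86, 3.45 and 5.30 CPM (23, 6 and 17 counts) and then 3.71, 11.1 and 10.9 CPM (4, 43 and 39 counts). Their rise over time passed narrowly (1.76-fold, edgeR adjusted p = 0.0440) with overlapping replicates. It was lost in 10 of 14 alternative settings, among them without day 0 replicate 2 (adjusted p = 0.168) or 3 (0.104) or without day 10 replicate 2 (0.195) or 3 (0.174).

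Esrp1 was the only one of the 10 genes that passed between Quaking KO and WT stem cells, a comparison within pool 1. It was 2.87-fold lower (log2 fold change -1.52, SE 0.31, edgeR adjusted p = 0.0210), with no overlap of replicates, where 0.365% of all features passed. It no longer passed on leaving out Quaking KO day 0 replicate 1 (0.0522), 2 (0.116) or 3 (0.185) or WT day 0 replicate 1 (0.144), with log2 fold changes of -1.29 to -1.80. Sam68 KO stem cells exceeded Quaking KO by 1.42 (SE 0.31, edgeR adjusted p = 0.00946), which was lost without Quaking KO day 0 replicate 2 (0.0520) or 3 (0.0627). At day 10 Quaking KO was 4.25-fold below WT (-2.09, SE 0.29, edgeR adjusted p = 8.27e-06) and 4.66-fold below Sam68 KO (edgeR adjusted p = 2.98e-06). The change over time was not shown to differ from WT (interaction -0.57, SE 0.44, edgeR adjusted p = 0.490).

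Cdh2 (ENSMUSG00000024304.14, chr18:16588877-16809246), the N-cadherin gene, rose in every line and most in Quaking KO. At day 0 it was low, at 6.83, 5.45 and 6.83 CPM in WT, 4.77, 2.30 and 4.68 CPM in Quaking KO (16, 4 and 15 counts) and 5.02, 4.32 and 2.95 CPM in Sam68 KO. The WT libraries all lay above those of both knockouts, and neither difference passed (edgeR adjusted p = 0.529 for Quaking KO and 0.173 for Sam68 KO). At day 10 it reached 59.7, 52.5 and 63.4 CPM in WT, 101, 91.3 and 86.1 CPM in Sam68 KO and 219, 169 and 191 CPM in Quaking KO. The 3 lines did not overlap, in the order WT, Sam68 KO, Quaking KO. Over all features at day 10, 31.2% had no overlap between Quaking KO and WT. The share was 11.4% between Sam68 KO and WT and 33.7% between the knockouts. These shares are for pairs of lines, in either direction. The share of features with all 3 lines apart in this order was not computed.

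Over time this was a rise of 8.97-fold in WT, 22.7-fold in Sam68 KO and 46.0-fold in Quaking KO (edgeR adjusted p = 5.83e-13, 3.18e-15 and 4.26e-16). The change in Quaking KO exceeded that in WT by 2.36 on the log2 scale (SE 0.30, edgeR adjusted p = 1.04e-05). That in Sam68 KO exceeded WT by 1.34 (SE 0.27, edgeR adjusted p = 0.0224), the only interaction among the 10 genes that passed for Sam68 KO, where 0.431% of all features did. The Sam68 KO interaction was lost when any of 8 libraries was left out: Sam68 KO day 0 replicate 2 or 3, Sam68 KO day 10 replicate 1 or 2, WT day 0 replicate 1 or 3, or WT day 10 replicate 1 or 2 (edgeR adjusted p = 0.0516 to 0.0966). At day 10 Cdh2 was 3.33-fold higher in Quaking KO than in WT (edgeR adjusted p = 7.17e-08) and 2.05-fold higher than in Sam68 KO (edgeR adjusted p = 4.44e-05). Sam68 KO was 1.62-fold above WT, which did not pass with edgeR (adjusted p = 0.123) and did with DESeq2 (adjusted p = 0.0278).

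The ratio of Cdh2 to Cdh1 counts within a library does not depend on how libraries are scaled. It does depend on the lengths of both genes, so it is compared between libraries only. On the log2 scale it was -6.67 ± 0.14 in WT, -7.12 ± 0.39 in Quaking KO and -7.41 ± 0.26 in Sam68 KO at day 0 (mean ± SD, n = 3). At day 10 it was -3.14 ± 0.55 in WT, -2.50 ± 0.20 in Sam68 KO and 0.55 ± 0.33 in Quaking KO. All 9 day 10 libraries exceeded all 9 day 0 libraries, by 5.37 on average (exact permutation test, two-sided, p = 4.11e-05, the smallest that 9 against 9 can give; 0.000411 adjusted over 10 comparisons). That test moved all 18 libraries freely between days and took no account of line. At day 10 the Quaking KO libraries had ratios of 1.88, 1.22 and 1.37. In WT the day 10 ratios were 0.0955, 0.0879 and 0.176, and in Sam68 KO 0.152, 0.190 and 0.193, where WT replicate 3, a dominated library, fell among the Sam68 KO values. Quaking KO exceeded WT by 3.69 and Sam68 KO by 3.05 without overlap (exact permutation p = 0.1 for each, the smallest that 3 against 3 can give). Sam68 KO and WT overlapped (exact permutation p = 0.2).

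**Figure D3:**
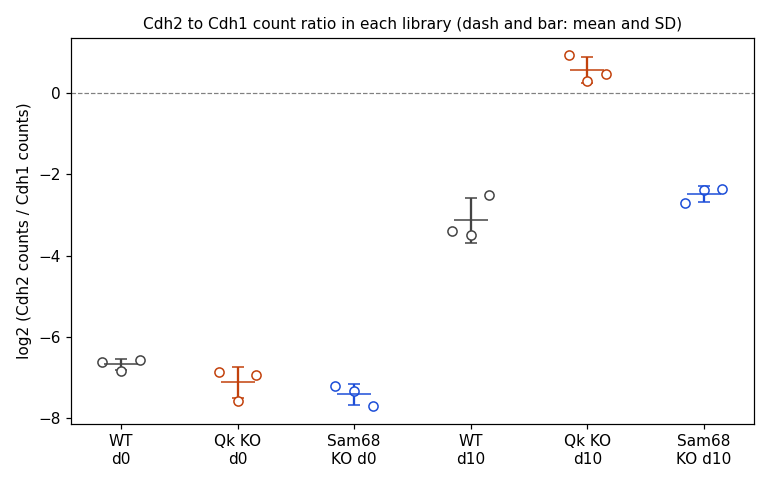
Log2 ratio of Cdh2 to Cdh1 counts (y axis) in each library by line and day (d0, d10), with the mean and SD of 3 libraries as dash and bar; the broken line marks equal counts. The Quaking KO day 10 group lies at 0.55, above the broken line, and every other group below it. Equal counts do not mean equal levels, because the ratio depends on the lengths of both genes.

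Vim (ENSMUSG00000026728.9, chr2:13574311-13582826), which encodes the intermediate filament protein vimentin, was abundant in stem cells already. Its day 0 levels were 406, 481 and 492 CPM in WT, 464, 370.4 and 461 CPM in Quaking KO and 419, 531 and 524 CPM in Sam68 KO, overlapping in all pairs of lines. At day 10 they were 1009, 948 and 846 CPM in WT, 834, 768 and 868 CPM in Sam68 KO and 1426, 1483 and 1548 CPM in Quaking KO. WT and Sam68 KO overlapped, and Quaking KO lay above both. The rise over time was 2.03-fold in WT, 1.68-fold in Sam68 KO and 3.44-fold in Quaking KO (edgeR adjusted p = 1.72e-07, 1.67e-05 and 1.74e-11). At day 10 Quaking KO was 1.59-fold above WT (edgeR adjusted p = 0.000334) and 1.81-fold above Sam68 KO (edgeR adjusted p = 1.73e-05). The interaction with WT was 0.76 (SE 0.18, edgeR adjusted p = 0.00724).

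Among the transcription factors, Zeb2 (ENSMUSG00000026872.17, chr2:44983512-45117442) separated Quaking KO most clearly. Zeb2 is a zinc finger and homeobox repressor of Cdh1 that also acts in neural crest and neural development. At day 0 it had 2.61, 2.65 and 2.79 CPM in WT, 3.28, 1.72 and 4.06 CPM in Quaking KO and 2.42, 3.01 and 1.92 CPM in Sam68 KO, with overlap throughout. At day 10 it had 24.6, 21.0 and 21.1 CPM in WT, 30.2, 29.1 and 40.7 CPM in Sam68 KO and 78.8, 93.7 and 76.3 CPM in Quaking KO. The 3 lines again did not overlap, in the order seen for Cdh2, where the shares over all features are given for pairs of lines only. Zeb2 rose 8.32-fold in WT, 12.9-fold in Sam68 KO and 25.7-fold in Quaking KO (edgeR adjusted p = 2.65e-11, 1.03e-12 and 5.95e-14). Quaking KO exceeded WT by 3.67-fold at day 10 (edgeR adjusted p = 1.79e-07) and Sam68 KO by 2.55-fold (edgeR adjusted p = 9.64e-06). Sam68 KO over WT was 0.52 on the log2 scale and did not pass (SE 0.21, edgeR adjusted p = 0.561). The Quaking KO interaction was 1.63 (SE 0.36, edgeR adjusted p = 0.00396). The long noncoding RNA Zeb2os overlaps the span of Zeb2, and since use of strand in counting is not given in the sources used here, reads from either cannot be told apart.

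Zeb1 (ENSMUSG00000024238.13, chr18:5591327-5775468), the closest relative of Zeb2, behaved otherwise. Its stem cell levels were similar in all lines, 15.4 to 17.7 CPM in WT, 14.3 to 17.2 CPM in Quaking KO and 12.6 to 19.8 CPM in Sam68 KO. At day 10 it had 23.1, 26.1 and 11.7 CPM in WT, 25.2, 23.9 and 24.1 CPM in Sam68 KO and 15.8, 44.1 and 43.7 CPM in Quaking KO. Quaking KO replicate 1, the shallowest library, had 17 counts and lay within the WT range, while the other two Quaking KO libraries were above all WT and Sam68 KO libraries. The difference from WT was 0.68 (SE 0.27, edgeR adjusted p = 0.0643) and passed without Quaking KO replicate 1 (0.95, edgeR adjusted p = 0.00230), with RLE scaling (0.0395) and with DESeq2 (0.0469). Without the dominated WT replicate 3, whose level rests on 5 counts, and the other dominated libraries it was smaller and did not pass (0.58, edgeR adjusted p = 0.123). Against Sam68 KO it did not pass either (-0.58, SE 0.26, edgeR adjusted p = 0.116) and did without that library (-0.86, edgeR adjusted p = 0.00524). The interaction was 0.80 (SE 0.38, edgeR adjusted p = 0.210) and passed without that library (1.08, edgeR adjusted p = 0.0221). Over time Zeb1 rose in Quaking KO (2.41-fold, edgeR adjusted p = 0.000260), though its replicates overlapped, and did not pass in WT (1.39-fold, edgeR adjusted p = 0.113), except when only the compared groups were fitted (0.56 on the log2 scale, edgeR adjusted p = 0.0321). In Sam68 KO it passed narrowly (1.53-fold, edgeR adjusted p = 0.0429) and lost the call without any of day 0 replicates 1 (0.162) and 2 (0.0999) and day 10 replicates 1 (0.219), 2 (0.138) and 3 (0.130). Without the dominated libraries that change was 0.67 on the log2 scale (edgeR adjusted p = 0.0771). The lncRNA Gm10125 overlaps its span.

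Twist1 (ENSMUSG00000035799.6, chr12:33957671-33959831), a basic helix-loop-helix factor of cranial mesenchyme and limb, went from 3.05, 2.37 and 2.87 CPM to 13.2, 19.3 and 14.1 CPM in WT. In Sam68 KO it went from 4.85, 3.01 and 3.84 CPM to 21.6, 21.0 and 28.7 CPM, and in Quaking KO from 1.79, 1.72 and 2.81 CPM to 34.3, 29.4 and 42.6 CPM. At day 10 the 3 lines did not overlap and had the same order as for Cdh2 and Zeb2. The shares over all features are those given for Cdh2, for pairs of lines only. The rises were 5.67-fold in WT, 6.03-fold in Sam68 KO and 16.3-fold in Quaking KO (edgeR adjusted p = 2.03e-08, 6.26e-09 and 7.21e-11). At day 10 Quaking KO was 2.24-fold above WT (edgeR adjusted p = 0.00132) and 1.53-fold above Sam68 KO, which did not pass (edgeR adjusted p = 0.0701). Without Quaking KO day 10 replicate 2 it did (edgeR adjusted p = 0.0485), as with RLE scaling (0.0365) and DESeq2 (0.0423). On thinning every library to the smallest total count the difference from WT did not pass (edgeR adjusted p = 0.0699). Sam68 KO over WT was 0.55 (SE 0.26, edgeR adjusted p = 0.720). The Quaking KO interaction of 1.52 (SE 0.44, edgeR adjusted p = 0.0284) was lost without Quaking KO day 0 replicate 1 (0.0950) or 2 (0.0630), Quaking KO day 10 replicate 3 (0.0685), WT day 0 replicate 1 (0.0641) or 3 (0.0633) or WT day 10 replicate 1 (0.0794).

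Snai1 (ENSMUSG00000042821.7, chr2:167538195-167542814) encodes Snail, a zinc finger repressor needed for mesoderm to leave the primitive streak. Its upstream window (GRCm38.p6, chr2:167537945-167538194, plus strand) is given as the other window read that had a match, again with the E-box letters in capitals.
Snai1 upstream: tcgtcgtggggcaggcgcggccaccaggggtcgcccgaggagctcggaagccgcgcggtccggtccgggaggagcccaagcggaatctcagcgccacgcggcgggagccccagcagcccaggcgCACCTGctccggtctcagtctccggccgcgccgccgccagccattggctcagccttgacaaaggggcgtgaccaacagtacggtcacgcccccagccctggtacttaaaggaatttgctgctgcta
It held CACCTG once, with its first base at -126. In WT Snai1 went from 4.79, 3.35 and 3.49 CPM to 36.1, 25.7 and 42.3 CPM, in Quaking KO from 3.28, 3.45 and 4.06 CPM to 49.2, 32.3 and 31.7 CPM, and in Sam68 KO from 6.41, 8.73 and 9.46 CPM to 34.2, 38.2 and 39.8 CPM. All 3 lines overlapped at day 10. The rises were 8.52-fold, 10.1-fold and 4.48-fold (edgeR adjusted p = 8.43e-11, 2.76e-10 and 1.15e-08).

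Among the 10 genes, Snai1 alone passed between Sam68 KO stem cells and both other lines, where pool and line cannot be told apart. At day 0 its level in Sam68 KO was 2.14-fold above WT (1.10 on the log2 scale, SE 0.24, edgeR adjusted p = 0.0179) and 2.28-fold above Quaking KO (1.19, SE 0.30, edgeR adjusted p = 0.0220), with no overlap. Against WT it was the only one of the 10 genes that passed, where 1.26% of all features did, and against Quaking KO it passed with Esrp1, where 3.31% did. The first call was lost in 5 of 14 alternative settings and the other in 9 of 14. The first was lost on thinning (0.0564), without Sam68 KO day 0 replicate 2 (0.0863) or 3 (0.121) or without WT day 0 replicate 2 (0.131) or 3 (0.157). The other was lost on thinning (0.292), with no filter (0.0829), with only the compared groups (0.0682) and with DESeq2 (0.0536). It was also lost without any of Quaking KO day 0 replicates 1 (0.125), 2 (0.0641) and 3 (0.0717) and Sam68 KO day 0 replicates 2 (0.0676) and 3 (0.0748). The change over time was smaller in Sam68 KO than in WT by 0.93 on the log2 scale, which did not pass (interaction -0.93, SE 0.33, edgeR adjusted p = 0.345).

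Snai2 (ENSMUSG00000022676.6, chr16:14705852-14709395) encodes Slug, the Snail family member of neural crest and many mesenchymal tissues, and had few footprints in stem cells. The WT stem cell libraries had 12, 2 and 11 counts, the Sam68 KO libraries 4, 7 and 2, and the Quaking KO libraries 1, 0 and 2. At day 10 Snai2 had 17.1, 13.1 and 11.7 CPM in WT, 10.3, 16.2 and 14.8 CPM in Sam68 KO and 18.6, 21.2 and 19.6 CPM in Quaking KO. It rose 15.1-fold in WT (edgeR adjusted p = 1.38e-08) and 22.4-fold in Sam68 KO (edgeR adjusted p = 6.30e-09). In Quaking KO the rise fitted by edgeR was 51.9-fold (edgeR adjusted p = 5.50e-09). As a ratio of summed counts, 172 at day 10 against 3 at day 0 came to a 55.9-fold difference in level (95% interval from counting error alone, 18.8 to 274). At day 10 the Quaking KO libraries lay above all others, but the difference from WT did not pass (0.45 on the log2 scale, SE 0.36, edgeR adjusted p = 0.397), nor did that from Sam68 KO (-0.57, SE 0.36, edgeR adjusted p = 0.267). WT replicate 3 had only 5 counts there.

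Across the time courses as a whole, all 5 transcription factors and both mesenchymal genes were higher at day 10 in the 2 knockouts, and all but Zeb1 passed in WT. The Zeb1 call in Sam68 KO was lost in 9 of 14 alternative settings. In WT 7 genes passed, all of them higher, where 34.9% of all features were called higher by edgeR. At an unadjusted p below 0.05 the number was also 7, against 67.9% of all features. By DESeq2 it was 7, where 4842 of the 13701 features were called higher and 4056 lower. In Quaking KO 8 were higher and 2 lower, against 34.7% and 29.4%, and in Sam68 KO 9 were higher and 1 lower, against 34.9% and 30.5%. The median log2 fold change of the 10 genes was 1.94, 2.56 and 1.89, and over all features it was 0.10, 0.11 and 0.11. Cdh2, Vim, Snai1, Snai2, Zeb2 and Twist1 had no overlap between the 9 day 0 and the 9 day 10 libraries of all lines. The share of all features without such an overlap was not computed. Within a line, no overlap between days was found in 67% of all features in WT, 65.2% in Quaking KO and 69.9% in Sam68 KO. Cdh1, Epcam, Esrp1 and Zeb1 did overlap. The change over time in Quaking KO was tested against that in WT for each gene, and 6 passed: Cdh1 and Epcam fell more, and Cdh2, Vim, Zeb2 and Twist1 rose more. Over all features 8.88% passed, 5.12% with a positive difference and 3.76% with a negative one. The knockouts were again set against the same WT libraries.

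**Figure D4:**
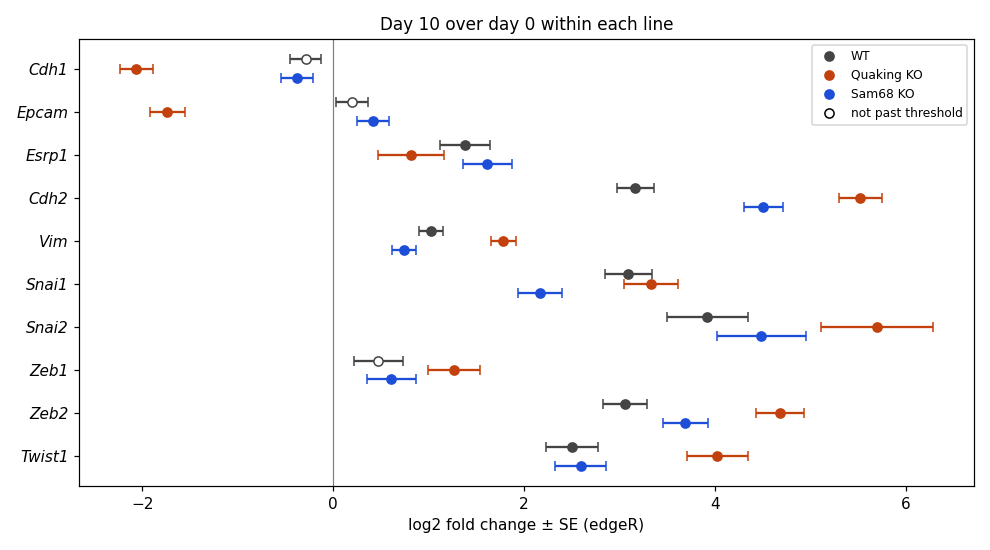
Log2 fold change from day 0 to day 10 (x axis, ± SE from edgeR) of each gene (y axis) in WT (grey), Quaking KO (orange) and Sam68 KO (blue); filled points passed an adjusted p of 0.05. Cdh1 and Epcam lie at -2.06 and -1.74 in Quaking KO and between -0.38 and 0.42 in the other two lines, while Cdh2 lies at 3.17, 5.52 and 4.51.

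Other features with patterns like those of Cdh1 and Vim were sought by Pearson's r of log2(CPM + 1) over the 18 libraries, which share the split by day. Closest to Cdh1 were ENSMUSG00000020277.10 (r = 0.968) and ENSMUSG00000026617.16 (r = 0.960). The former averaged 536 CPM in WT, 593 CPM in Sam68 KO and 310 CPM in Quaking KO at day 10, with 516 to 636 CPM in the day 0 groups. Closest to Vim were ENSMUSG00000024621.15 (r = 0.985) and ENSMUSG00000042286.13 (r = 0.985). The former had under 1 CPM in each day 0 group and averaged 36.0 CPM in WT, 14.5 CPM in Sam68 KO and 281 CPM in Quaking KO at day 10. These features are given by ID because the reference table used here holds no Ensembl ID. Whether any of them is a marker of a cell type was not checked.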

How the data were processed

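Ribosome footprints were counted per gene in 18 libraries, and the authors deposited 1 table of raw counts per library, whole numbers for 51826 versioned Ensembl IDs. The tools named are STAR 2.5.3a, Bowtie2 and bcl2fastq 2.17.1.14, and the builds GRCm38 and mm10, per the submitters' processing notes. What counted the reads, on which annotation and with what use of strand, is not given in the sources used here. Sample titles gave the groups and replicate numbers, and descriptions the pools.

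The main test was edgeR 4.0.16 (R 4.3.3): TMM scaling, edgeR's filter on low counts by group (13701 features kept, holding at least 99.4% of each library's counts), and a robust quasi-likelihood fit of all 18 libraries with a mean per group. There were 11 comparisons, 2 of them interactions, and p-values were adjusted over all features tested at a threshold of 0.05, two-sided. Fitted fold changes hold a small prior count, and the fit was tested on simulated counts. Cadherin ratios used counts plus 0.5. Counting intervals (95%, exact binomial) and the floor of 3 counts reflect counting error alone, because PCR copies among the reads cannot be recognised. Every pair of replicates differed by more than sampling noise (chi-square over its degrees of freedom, 4.80 or more).

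Alternatives were DESeq2 1.42.0, no filter, scaling by RLE or by the upper quartile, only the compared groups, a replicate block, thinning every library to 988210 counts, leaving out the 3 dominated libraries, and leaving out each library in turn. The members were named by an ID list fixed for this work. The reference table of 49997 genes held 0 Ensembl IDs. Other pathway genes, cell type markers and the knocked-out genes, listed by symbol, were therefore not looked up. Their part in the results was not tested. Gene lengths fit for footprints were not used here, so levels of different genes are not compared. All 10 members are named by rule, as are the 2 features most like Cdh1 and the 2 most like Vim. The members and lists were chosen with earlier results of these data known.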

Additional observations from a re-analysis of the deposited data

Results flagged for a closer look

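The change from day 0 to day 10 differed between Quaking KO and WT for 6 genes, by a test of the difference itself (edgeR interaction term, adjusted over 13701 features). The difference in log2 fold change was -1.77 for Cdh1, -1.93 for Epcam, 2.36 for Cdh2, 0.76 for Vim, 1.63 for Zeb2 and 1.52 for Twist1. Between Sam68 KO and WT it differed for Cdh2, by 1.34. Cdh1, Epcam and Cdh2 kept the Quaking KO call in all 20 alternative settings, Vim and Zeb2 each lost it in 1 and Twist1 in 8, and Cdh2 lost the Sam68 KO call in 9. No test for an outlying value within a group was made, since the groups hold 3 libraries each.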

How the results depend on the processing

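The 7 genes that rose over time in WT kept their calls in all 14 alternative settings. At day 10, Cdh1, Epcam, Esrp1, Cdh2, Vim and Zeb2 kept theirs in all 14 both for Quaking KO vs WT and for Sam68 KO vs Quaking KO, and Twist1 lost its call against WT on thinning alone (edgeR adjusted p = 0.0699). Over 110 pairs of gene and comparison, 51 passed. Signs changed in 70 of 1657 alternative values, in none of which the gene passed under either setting.

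The counts of genes passing at day 0 depended on the settings. For Quaking KO vs WT the count of 1 became 0 under RLE scaling, upper quartile scaling and thinning, and was 0 to 1 on leaving out a library. For Sam68 KO vs WT it went from 1 to 0 on thinning and was 0 to 1 on leaving out a library. For Sam68 KO vs Quaking KO it went from 2 to 1 without the filter, with only the compared groups and with DESeq2, to 0 on thinning, and was 0 to 2 on leaving out a library. At day 10, Sam68 KO vs WT went from 0 to 1 with DESeq2. The Sam68 KO interaction went from 1 to 0 on thinning and was 0 to 1 on leaving out a library. Thinning to 988210 counts leaves few counts for the less abundant genes.

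Labels share replicate numbers, but deviations of same-numbered libraries correlated at -0.203 to 0.505 and in no comparison above 0.1 for every pair, so the numbers were not taken to pair samples. With a replicate block 7 genes passed for Quaking KO vs WT at day 10, and no count of genes passing in any comparison moved. Counts over all features moved by over 1.5 times in the comparisons of lines: over the settings other than leaving out a library, 50 became 17 to 95 for Quaking KO and 173 became 66 to 297 for Sam68 KO against WT at day 0, and 454 became 178 to 627 between the knockouts. At day 10 the corresponding ranges were 1887 to 3489 from 3279, 11 to 95 from 24 and 1998 to 3380 from 3242, and for the interactions 572 to 1355 from 1216 and 19 to 129 from 59. RLE scaling moved the split of higher and lower features for Sam68 KO vs Quaking KO at day 0 from 349 and 105 to 237 and 139. Depth limited Snai2, Zeb2, Twist1, Esrp1, Cdh2, Zeb1 and Snai1, whose lowest libraries had 0, 3, 3, 4, 4, 5 and 6 counts.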
